A study of Mus musculus with 9 samples.

Results

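Natural killer (NK) cells read their targets through a small set of activating and inhibitory surface receptors, and 9 genes of such receptors were described here: Ncr1, Cd226, Cd96, Crtam, Cd160, Fcgr3, Lag3, Havcr2 and Pdcd1. Every probe set that the platform annotation gives to 1 of these symbols alone was taken, which gave 12 probe sets among the 45101 of the array: 1 for each of 8 genes and 4 for Cd160. The 9 genes stand among 18193 with a probe set of their own. Dim probe sets were left untested: the limit was the 40th percentile of mean log2 intensity (5.58, which is 47.7 on the linear scale), and 10 of the 12 were above it. Cd226 and Havcr2 lay under this filter and are given as values with no test.

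Cells sorted as NK cells came from 3 groups of mice with 3 biological replicates each, and all 3 groups carry IL15tg, a transgene for interleukin 15, the cytokine on which NK cells depend. The groups were bone marrow cells of NKDxIL15tg mice, spleen cells of NKDxIL15tg mice, and spleen cells of IL15tg mice. NKD is a transgenic line with few mature NK cells, and the series' design text calls the NKDxIL15tg cells immature and the IL15tg cells mature. The promoters of the transgenes, the age of the mice and whether a sample pooled several mice are not given in the sources used here, so a p-value measures the spread between these samples. NKD genotype and immaturity go together in every array and cannot be told apart, and in bulk RNA fewer cells of a type and less RNA per cell cannot be told apart either.

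Ncr1 encodes NKp46, a natural cytotoxicity receptor carried by nearly all NK cells, which signals through adaptors with activation motifs. Cd226 (DNAM-1), Cd96 and Crtam are receptors of the immunoglobulin superfamily that bind nectins and nectin-like molecules: Cd226 and Cd96 share the ligand Pvr (CD155), and Crtam binds Cadm1. Cd160 binds the TNF receptor family member Tnfrsf14 (HVEM), and Fcgr3 is the mouse CD16, through which NK cells kill cells coated with antibody. Lag3, Havcr2 (TIM-3) and Pdcd1 (PD-1) are checkpoint receptors, induced on lymphocytes by activation, which restrain them.

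The arrays had median intensities of 56.6 to 64.9, and NKDxIL15tg bone marrow replicate 3 stood apart, with 7.70% of tested probe sets over 2-fold above all 8 other arrays (at most 0.0222% in any other). Member calls that changed without it are given with and without it. All 10 genes of an NK cell marker list were measured above the filter. Their summed intensities were 20620 to 22720 in NKDxIL15tg bone marrow, 23830 to 25730 in NKDxIL15tg spleen and 35520 to 37210 in IL15tg spleen. In the same order of groups, Klrd1 averaged 898, 1232 and 5941 and Klrc1 133, 270 and 2928, and the difference lay mainly in these. Eomes, Il2rb, Nkg7, Gzma and Cd7 did not pass in either comparison against IL15tg spleen. The means of Eomes and Il2rb were lowest in IL15tg spleen. Summed over 15 markers of granulocytes and monocytes, the intensity was 15210 to 34820 in NKDxIL15tg bone marrow, 6638 to 11360 in NKDxIL15tg spleen and 3810 to 4060 in IL15tg spleen. Over 13 markers of macrophages and dendritic cells it was 1666 to 2196 in NKDxIL15tg bone marrow, 2531 to 2748 in NKDxIL15tg spleen and 3578 to 6705 in IL15tg spleen. Over 10 markers of T cells it was 2757 to 3569 in NKDxIL15tg bone marrow, 2928 to 3401 in NKDxIL15tg spleen and 1503 to 1604 in IL15tg spleen. Over 7 erythroid markers it was 5487 to 7485 in NKDxIL15tg bone marrow, 7593 to 8157 in NKDxIL15tg spleen and 1781 to 1917 in IL15tg spleen. Over 9 B cell markers it was 707 to 2348 in NKDxIL15tg bone marrow, 807 to 877 in NKDxIL15tg spleen and 1086 to 1782 in IL15tg spleen. The 2348 was bone marrow replicate 3, with Cd22 at 1898, against 707 and 845 in bone marrow replicates 1 and 2. The macrophage and dendritic cell difference lay mainly in H2-Aa, H2-Ab1, H2-Eb1 and Cd74, genes of MHC class II presentation. The T cell difference lay mainly in Cd28, with means of 1410 in NKDxIL15tg bone marrow, 1637 in NKDxIL15tg spleen and 380 in IL15tg spleen. Of 8 tested T cell markers 2 passed in either comparison against IL15tg spleen, not Cd3e, Cd4 or Cd8a. The erythroid difference lay mainly in Car2, with means of 5986 in NKDxIL15tg bone marrow, 7016 in NKDxIL15tg spleen and 1407 in IL15tg spleen, and 4 of 7 tested erythroid markers rose in the spleen and 5 in bone marrow. Over all tested probe sets 6.75% rose in the spleen comparison and 9.79% in bone marrow against IL15tg spleen. No marker with a probe set was under an intensity of 16 on all 3 arrays of a group.

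**Figure D1:**
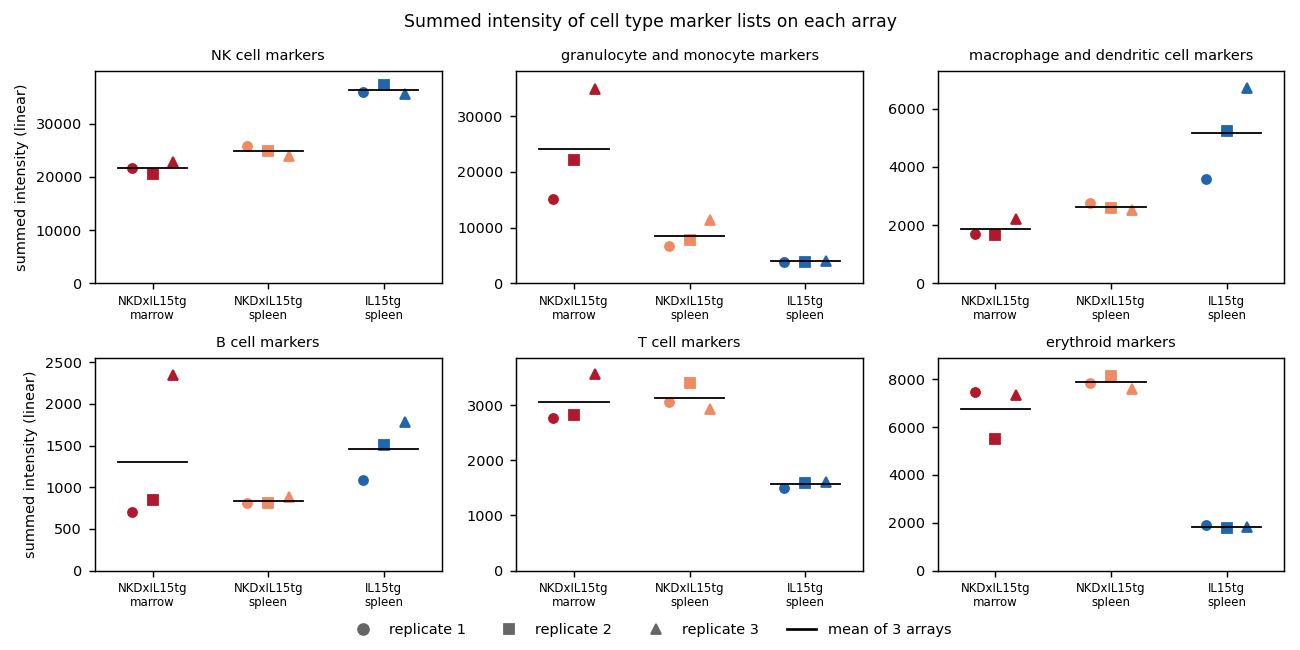
Summed linear intensity (vertical axis) of 6 cell type marker lists on each of the 9 arrays, by group (horizontal axis); symbols mark replicates and lines the mean of 3 arrays. The sum of NK cell markers was highest in IL15tg spleen, mainly through Klrd1 and Klrc1. That of granulocyte and monocyte markers was highest in NKDxIL15tg bone marrow (15210 to 34820). The T cell and erythroid sums were higher in both NKDxIL15tg groups than in IL15tg spleen, differences carried mainly by Cd28 and Car2.

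The change in the immature cells was uneven over the receptors. Relative to IL15tg spleen, Fcgr3 fell and Crtam rose in both NKDxIL15tg groups, Cd160 rose in 1 of its 4 probe sets in NKDxIL15tg spleen and 3 of them in bone marrow, Ncr1 was lower on every array but did not pass the test, and Cd96, Lag3 and Pdcd1 did not pass in any comparison. Between NKDxIL15tg bone marrow and NKDxIL15tg spleen no member passed. Log2 changes are given with standard errors from limma, with a Benjamini-Hochberg adjustment of p across all 27022 probe sets that passed the filter and a threshold of 0.05. Both comparisons against IL15tg spleen use the same 3 IL15tg arrays.

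Counted together, 3 of the 10 tested member probe sets passed in NKDxIL15tg against IL15tg spleen, 2 higher and 1 lower, where 13.8% of all tested probe sets passed (6.75% higher and 7.04% lower). The median change of the 10 was 0.24, against -0.0029 over all probe sets. In NKDxIL15tg bone marrow against IL15tg spleen 5 of the 10 passed, 4 higher and 1 lower, where 21.3% of all passed (9.79% higher and 11.5% lower), with medians of 0.35 and 0.08. Of these 5, 3 are probe sets of Cd160, so the counts stand for 3 genes in either comparison. Cd160 gives 4 of the 10 tested probe sets, so the member medians weigh this gene 4 times. They do not show a shift of the receptors as a set. In NKDxIL15tg bone marrow against NKDxIL15tg spleen 0 of 10 passed in limma (1 at an unadjusted p under 0.05, Crtam), where 0.0518% of all passed (0.0111% higher and 0.0407% lower), or 14 probe sets (23 with the replicate number as a block). Without bone marrow replicate 3 the member count was 5 (3 higher and 2 lower) in either comparison against IL15tg spleen, with Ncr1 as the added lower gene, and 0 between the organs. In that fit Cd160 1456847_at was gained in the spleen (adjusted p = 0.0398 in limma) and Cd160 1420396_at was lost in bone marrow (0.0662).

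**Figure D2:**
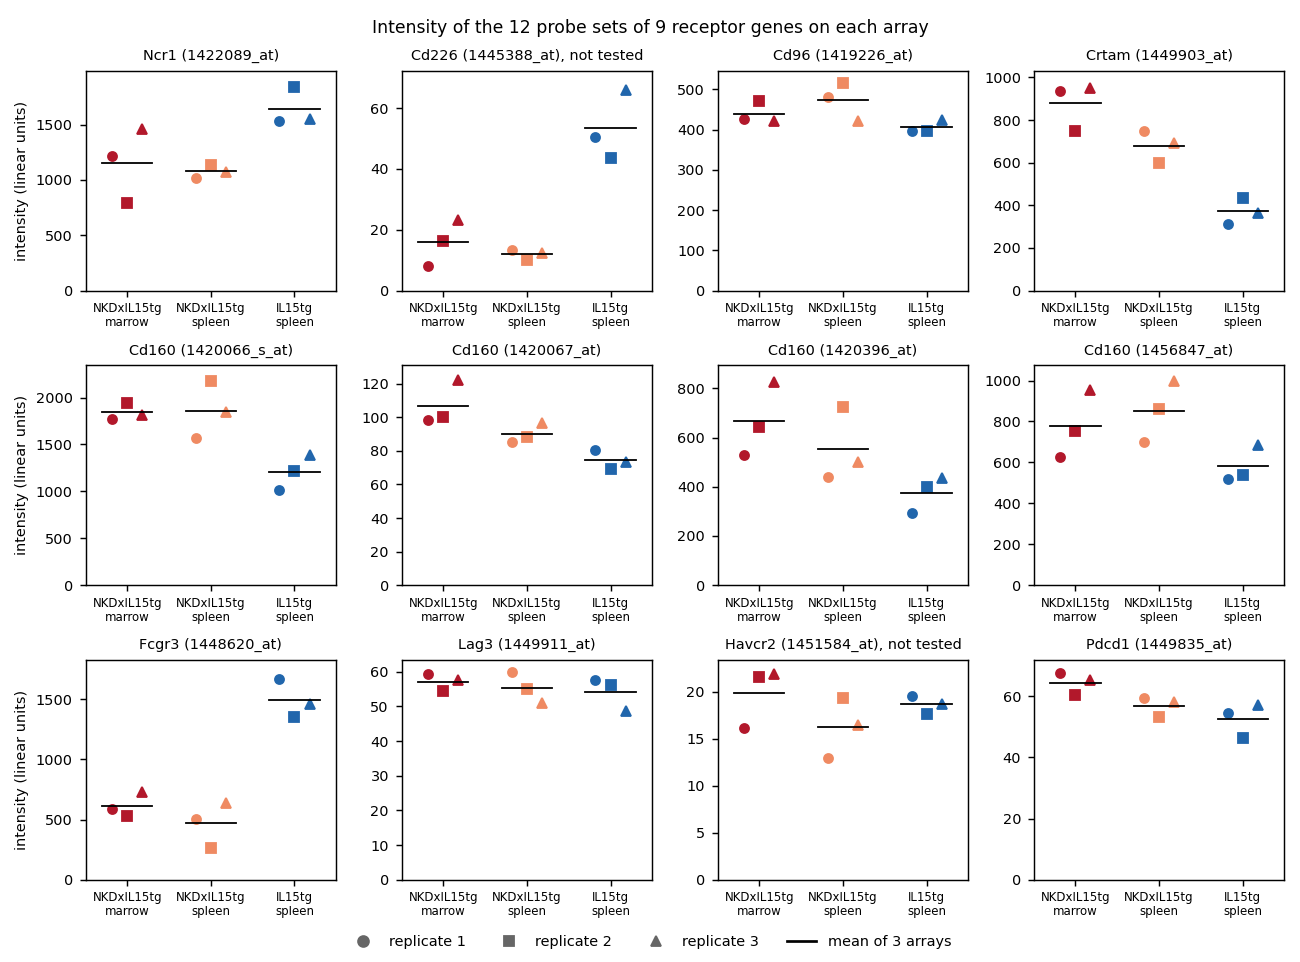
Linear intensity (vertical axes, each from 0) of the 12 probe sets on each array, by group; symbols mark replicates and lines the mean of 3 arrays. Fcgr3 and Cd226 sit lower, and Crtam higher, on all 6 NKDxIL15tg arrays than on the 3 IL15tg arrays, while the groups overlap for Lag3 and Havcr2.

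Promoter sequence of RefSeq was held for 6 of the 9 genes in the tables used here (250 bases before to 50 after an annotated start, GRCm38.p6). Those of Ncr1, Fcgr3 and Cd160 are shown because they belong to NKp46 and to changed receptors. Capitals mark matches, on either strand, to 5 motifs of factors of lymphocytes: TGTGGT (RUNX), GGTGTG (T-box), AGGAAG (ETS), TGANTCA (AP-1) and TGACGTCA (CRE, a site of the CREB and ATF factors). Both annotated starts of Cd160 are given, and for Ncr1 and Fcgr3 the first of 2 that overlap.
Ncr1, chr7:4337465-4337764, plus strand: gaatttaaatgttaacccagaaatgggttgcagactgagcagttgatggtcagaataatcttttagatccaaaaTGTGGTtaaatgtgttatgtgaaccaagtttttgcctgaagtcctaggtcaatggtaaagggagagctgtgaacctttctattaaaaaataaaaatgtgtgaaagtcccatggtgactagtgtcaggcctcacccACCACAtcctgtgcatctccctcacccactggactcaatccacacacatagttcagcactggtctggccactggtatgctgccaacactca
Fcgr3, chr1:171059354-171059653, minus strand: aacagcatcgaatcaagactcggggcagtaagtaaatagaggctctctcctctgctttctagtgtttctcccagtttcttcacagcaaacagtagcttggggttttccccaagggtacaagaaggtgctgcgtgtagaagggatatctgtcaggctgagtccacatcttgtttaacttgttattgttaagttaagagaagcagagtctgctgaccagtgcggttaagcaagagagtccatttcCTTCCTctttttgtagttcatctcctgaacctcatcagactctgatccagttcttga
Cd160, chr3:96829302-96829601, minus strand: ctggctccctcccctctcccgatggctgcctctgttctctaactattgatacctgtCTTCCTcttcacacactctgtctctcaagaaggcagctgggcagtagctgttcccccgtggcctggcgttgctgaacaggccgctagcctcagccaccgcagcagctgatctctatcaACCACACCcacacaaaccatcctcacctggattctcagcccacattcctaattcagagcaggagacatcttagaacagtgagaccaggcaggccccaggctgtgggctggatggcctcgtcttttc
Cd160, chr3:96814472-96814771, minus strand: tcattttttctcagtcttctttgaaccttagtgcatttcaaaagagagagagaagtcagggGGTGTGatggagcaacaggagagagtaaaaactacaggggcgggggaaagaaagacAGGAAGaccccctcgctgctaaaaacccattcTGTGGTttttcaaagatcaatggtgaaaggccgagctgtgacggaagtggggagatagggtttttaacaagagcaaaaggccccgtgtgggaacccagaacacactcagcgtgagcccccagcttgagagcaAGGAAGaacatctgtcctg
The Ncr1 window holds 2 RUNX matches and 0 of the other motifs. The Fcgr3 window holds 1 ETS match and no RUNX or T-box match. Each Cd160 window holds 1 RUNX and 1 T-box match, which overlap in the first window, with 1 ETS match in the first and 2 in the second. Of all 32851 promoter windows of this length, 16.8% held the RUNX letters, 19.0% the T-box letters, 35.4% the ETS letters, 7.81% the AP-1 letters and 1.79% the CRE letters. A match of letters describes the sequence and does not show binding.

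Ncr1 (probe set 1422089_at) had intensities of 1215, 789 and 1464 in NKDxIL15tg bone marrow replicates 1 to 3, 1021, 1139 and 1075 in NKDxIL15tg spleen, and 1532, 1842 and 1553 in IL15tg spleen. All 6 NKDxIL15tg arrays lay below all 3 IL15tg arrays, and the bone marrow arrays spread around the NKDxIL15tg spleen arrays, with replicate 3 close to the IL15tg range. The mean was 1156 ± 341 in NKDxIL15tg bone marrow, 1078 ± 58.8 in NKDxIL15tg spleen and 1642 ± 173 in IL15tg spleen (SD, n = 3 each). The log2 change was -0.60 ± 0.21 for NKDxIL15tg against IL15tg spleen (adjusted p = 0.0890 in limma) and -0.55 ± 0.21 for NKDxIL15tg bone marrow against IL15tg spleen (adjusted p = 0.0907), neither past the threshold. Without bone marrow replicate 3, both passed (adjusted p = 0.0256 and 0.0151 in limma), and without bone marrow replicate 2 the spleen comparison passed (adjusted p = 0.0191) while the bone marrow change shrank to -0.30 (adjusted p = 0.169). Over the 9 fits that leave out an array the spleen comparison passed in 2 and the bone marrow one in 1, with adjusted p up to 0.248 and 0.246. Between the organs the log2 change was 0.06 ± 0.21 (adjusted p = 0.923 in limma). The spleen difference amounts to a 1.52-fold lower intensity. Of the 10 NK cell markers, 4 fell in the spleen comparison and 5 in bone marrow against IL15tg spleen. Over all tested probe sets 7.04% and 11.5% fell in these comparisons. The part of these markers in the level of Ncr1 was not tested.

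No common change was shown for the adaptors that carry the signal of NKp46 and CD16. Fcer1g, the Fc receptor gamma chain, had intensities of 2675, 2443 and 2764 in NKDxIL15tg bone marrow, 2530, 2525 and 2429 in NKDxIL15tg spleen and 2639, 2907 and 2690 in IL15tg spleen, and the NKDxIL15tg against IL15tg spleen change was -0.14 ± 0.10 (adjusted p = 0.432 in limma). Cd247, the zeta chain, gave 0.22 ± 0.13 in its brightest probe set, taken for each gene as that of the highest mean log2 intensity (adjusted p = 0.296), although a dimmer probe set, 1420716_at, rose by 0.58 ± 0.13 (adjusted p = 0.0166). Cd247 probe set 1452539_a_at, also dimmer, gave 0.60 ± 0.18 (adjusted p = 0.0624). Tyrobp (DAP12), an adaptor of other activating receptors, gave -0.16 ± 0.09 (adjusted p = 0.320).

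Among the receptors of nectins and nectin-like ligands, Crtam moved most among those tested. Its probe set 1449903_at read 939, 747 and 951 in NKDxIL15tg bone marrow, 751, 599 and 691 in NKDxIL15tg spleen, and 312, 436 and 366 in IL15tg spleen. Every NKDxIL15tg array lay above every IL15tg array, and the 2 NKDxIL15tg groups overlapped only through bone marrow replicate 2 and spleen replicate 1. Crtam rose by 0.88 ± 0.16 in NKDxIL15tg against IL15tg spleen (1.84-fold, adjusted p = 0.00806 in limma) and by 1.25 ± 0.16 in NKDxIL15tg bone marrow against IL15tg spleen (2.38-fold, adjusted p = 0.00101). Both changes passed under all 18 alternative settings, with adjusted p of at most 0.0375 and 0.00825 in limma. Bone marrow against spleen gave 0.37 ± 0.16 (adjusted p = 0.477), which did not pass, so the order of the 2 NKDxIL15tg groups was not resolved.

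Cadm1, the nectin-like ligand of Crtam, rose on the same arrays. Its probe set of highest mean log2 intensity, 1417376_a_at, read 216, 246 and 254 in NKDxIL15tg bone marrow, 276, 112 and 243 in NKDxIL15tg spleen, and 28.9, 32.7 and 30.2 in IL15tg spleen. The groups were far apart, with NKDxIL15tg spleen replicate 2 the lowest of the 6 NKDxIL15tg arrays, as it was in the other 2 tested probe sets of the gene. The gain was 2.68 ± 0.29 in NKDxIL15tg against IL15tg spleen (adjusted p = 0.000573 in limma) and 2.96 ± 0.29 in NKDxIL15tg bone marrow against IL15tg spleen (adjusted p = 0.000246). Cadm1 passed the filter only through the NKDxIL15tg groups, its IL15tg level was not shown to be above background, and with a floor of 64 the gains were 1.61 and 1.89 (adjusted p = 0.0490 and 0.0216). The other tested probe sets, 1417377_at and 1417378_at, rose by 3.26 ± 0.39 and 2.80 ± 0.34 in the spleen comparison (adjusted p = 0.00101 and 0.00112). Cadm1 is also made by other cells, and the sum of granulocyte and monocyte markers was higher on the same 6 arrays, as were those of erythroid and T cell markers, mainly through Car2 and Cd28 and with 6 of 8 tested T cell markers not passing. Their part in this result was not tested.

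Cd226 (probe set 1445388_at) was dim throughout. It read 7.96, 16.4 and 23.2 in NKDxIL15tg bone marrow, 13.3, 10.2 and 12.2 in NKDxIL15tg spleen, and 50.3, 43.6 and 66.0 in IL15tg spleen. The IL15tg arrays were all higher, and 4 of the 6 NKDxIL15tg arrays lay below the floor of 16 at which intensities were set before taking logs. With the floor, the difference was -1.71 in the spleen comparison and -1.52 in bone marrow against IL15tg spleen, and its size depends on the floor. The gene was not tested in the main fit because its mean fell under the filter. Without any filter it passed in both (adjusted p = 0.00257 and 0.00291 in limma), and with a floor of 64 it did not (adjusted p = 0.871 and 0.637).

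Cd96, which binds Pvr in competition with Cd226, read 426, 472 and 421 in NKDxIL15tg bone marrow, 482, 515 and 422 in NKDxIL15tg spleen, and 398, 396 and 424 in IL15tg spleen. The groups overlapped in all 3 comparisons, and the log2 changes were -0.10 ± 0.11 between the organs, 0.22 ± 0.11 for NKDxIL15tg against IL15tg spleen and 0.11 ± 0.11 for bone marrow against IL15tg spleen (adjusted p = 0.694, 0.250 and 0.463 in limma). Of 8 genes listed as nectin ligands and related receptors, 5 were tested, and Cadm1 alone passed in each comparison against IL15tg spleen. Of all tested probe sets 13.8% passed in the spleen and 21.3% in bone marrow. The list medians were -0.08 in the spleen and 0.33 in bone marrow (-0.0029 and 0.08 over all probe sets). The bone marrow median was that of Nectin1, which read 111 in bone marrow replicate 3, against 66.8 and 64.6 in replicates 1 and 2. Pvr itself read 93.6 to 117 in NKDxIL15tg bone marrow, 112 to 119 in NKDxIL15tg spleen and 113 to 135 in IL15tg spleen. Its spleen change was -0.08 ± 0.12 (adjusted p = 0.783 in limma), and Nectin1, Nectin2 and Nectin3 gave 0.02, -0.16 and -0.19 (adjusted p = 0.975, 0.470 and 0.723). The related receptors Tigit and Pvrig had no probe set of their own and were not analysed here.

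Cd160 was read by 4 probe sets, all of them higher on average in NKDxIL15tg cells. The brightest, 1420066_s_at, read 1776, 1944 and 1809 in NKDxIL15tg bone marrow, 1565, 2175 and 1844 in NKDxIL15tg spleen, and 1019, 1216 and 1389 in IL15tg spleen. The NKDxIL15tg arrays all lay above the IL15tg arrays and the 2 NKDxIL15tg groups overlapped. It rose by 0.62 ± 0.15 in NKDxIL15tg against IL15tg spleen (1.54-fold, adjusted p = 0.0292 in limma) and by 0.62 ± 0.15 in bone marrow against IL15tg spleen (adjusted p = 0.0215). The suffix of this probe set marks probes that can match more than 1 transcript. Both calls rested on single arrays: the spleen call was lost without IL15tg replicate 1 or 2 or NKDxIL15tg spleen replicate 2 or 3 (adjusted p = 0.111, 0.0879, 0.0990 and 0.0678 in limma), and the bone marrow call without IL15tg replicate 1 or 2 or bone marrow replicate 2 (0.0864, 0.0651 and 0.0613). Quantile normalization also ended both (0.0624 and 0.0652), as did a floor of 64 (0.0867 and 0.0670), and scaling to a common 75th percentile ended the bone marrow call (0.0580).

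The other Cd160 probe sets moved in the same direction with different calls. Probe set 1420396_at read 530, 643 and 825 in NKDxIL15tg bone marrow, 440, 723 and 500 in NKDxIL15tg spleen, and 294, 399 and 434 in IL15tg spleen. The groups did not overlap between NKDxIL15tg and IL15tg cells, and the change was 0.55 ± 0.24 in the spleen (adjusted p = 0.170 in limma) and 0.82 ± 0.24 in bone marrow against IL15tg spleen (adjusted p = 0.0378). The bone marrow call was lost in 6 of the 9 fits that leave out an array, with adjusted p of 0.0241 to 0.140 over all 9. Among the 6 was the fit without bone marrow replicate 3, where the change was 0.66 (adjusted p = 0.0662 in limma). Probe set 1456847_at read 625, 756 and 954 in NKDxIL15tg bone marrow, 698, 863 and 1000 in NKDxIL15tg spleen, and 517, 539 and 684 in IL15tg spleen, so that bone marrow replicate 1 fell inside the IL15tg range. It gave 0.55 ± 0.20 in the spleen (adjusted p = 0.0994, but 0.0162 with the replicate number as a block and 0.0398 without bone marrow replicate 3) and 0.41 ± 0.20 in bone marrow against IL15tg spleen (adjusted p = 0.164). The replicate numbers were not shown to pair the arrays of the spleen comparison. The dimmest, 1420067_at, read 98.6 to 122 in NKDxIL15tg bone marrow, 85.6 to 96.4 in NKDxIL15tg spleen and 69.3 to 80.8 in IL15tg spleen. Its changes were 0.27 ± 0.12 (adjusted p = 0.184) and 0.52 ± 0.12 (adjusted p = 0.0173, but 0.0719 and 0.0555 without IL15tg replicate 2 or 3). Over the 9 arrays the 4 probe sets correlated with each other at r = 0.653 to 0.886, a description of arrays that share groups.

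Tnfrsf14, the ligand of Cd160, lay under the filter at 34.4 to 39.9 in NKDxIL15tg bone marrow, 38.4 to 47.1 in NKDxIL15tg spleen and 33.3 to 47.6 in IL15tg spleen. Btla, an inhibitory receptor of lymphocytes that binds the same ligand, read 20.7, 28.0 and 24.6 in NKDxIL15tg bone marrow, 33.7, 43.0 and 44.7 in NKDxIL15tg spleen, and 141, 197 and 265 in IL15tg spleen. The groups were well apart. Btla fell by 2.27 ± 0.23 in NKDxIL15tg against IL15tg spleen (adjusted p = 0.000389 in limma) and by 3.00 ± 0.23 in bone marrow against IL15tg spleen (adjusted p = 6.38e-05). It passed the filter only through IL15tg spleen, its NKDxIL15tg levels were not shown to be above background, and with a floor of 64 both changes were -1.60 (adjusted p = 0.0118 and 0.00850). Btla is abundant in B cells, of whose 7 tested markers 3 fell in the spleen comparison and 4 in the other. Cd79a, counted in both, also passed the filter only through IL15tg spleen. Over all tested probe sets 7.04% and 11.5% fell in these comparisons. The part of B cells in this result was not tested.

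**Figure D3:**
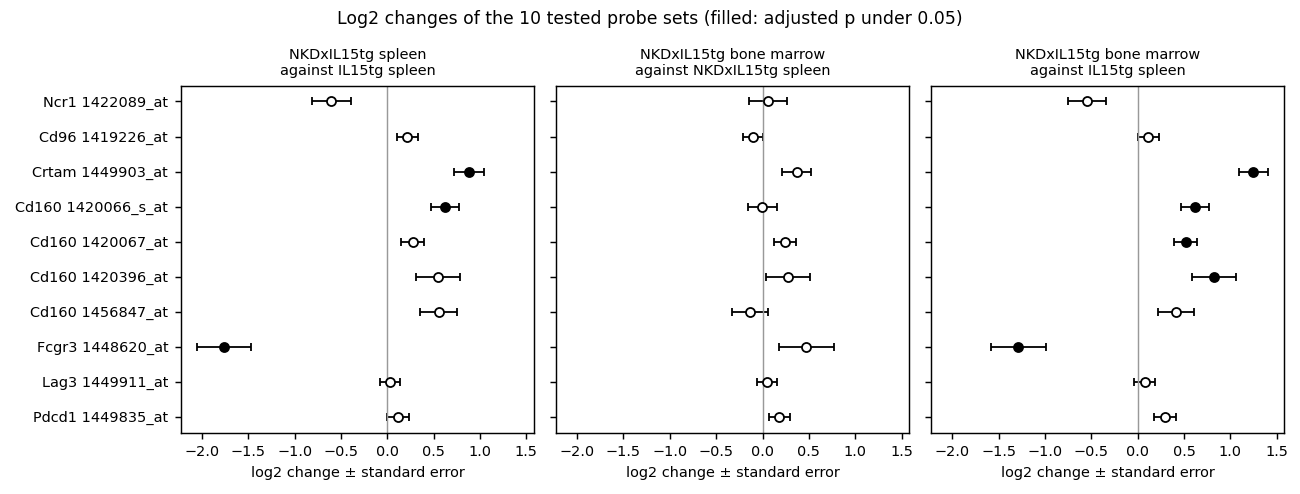
Log2 change (horizontal axes, points with standard errors, n = 3 arrays a group) of the 10 tested probe sets in 3 comparisons; filled points passed at an adjusted p under 0.05. Crtam and Fcgr3 passed in both comparisons against IL15tg spleen, Cd160 in 1 and 3 of its 4 probe sets, and 0 passed between NKDxIL15tg bone marrow and spleen.

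Fcgr3, the receptor for antibody on NK cells, showed the lowest log2 change of the members tested. Probe set 1448620_at read 590, 528 and 726 in NKDxIL15tg bone marrow, 508, 260 and 641 in NKDxIL15tg spleen, and 1671, 1353 and 1457 in IL15tg spleen. All NKDxIL15tg arrays lay below all IL15tg arrays, and NKDxIL15tg spleen replicate 2 was the lowest. Fcgr3 fell by 1.76 ± 0.29 in NKDxIL15tg against IL15tg spleen (3.39-fold lower, adjusted p = 0.00534 in limma) and by 1.29 ± 0.29 in bone marrow against IL15tg spleen (2.44-fold lower, adjusted p = 0.0150). The spleen call passed under all 18 alternative settings (adjusted p up to 0.0411). The bone marrow call was lost without IL15tg replicate 1 (adjusted p = 0.0645) and with a floor of 64 (0.0788). Between the organs the change was 0.47 ± 0.29 (adjusted p = 0.503).

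Fcgr2b, the inhibitory Fc receptor whose coding sequence is close to that of Fcgr3, fell beside it. Its probe set of highest mean log2 intensity, 1435476_a_at, read 140, 144 and 151 in NKDxIL15tg bone marrow, 155, 135 and 143 in NKDxIL15tg spleen, and 364, 336 and 310 in IL15tg spleen. The spleen change was -1.22 ± 0.11 (adjusted p = 0.000165 in limma). Probe sets 1435477_s_at and 1451941_a_at changed by -2.88 ± 0.28 and -2.56 ± 0.22 (adjusted p = 0.000289 and 0.000172). Of these, 1451941_a_at passed the filter only through IL15tg spleen. It read 21.2 to 36.8 on the NKDxIL15tg arrays, not shown to be above background, so the size of its change is uncertain. Probe set 1447622_at lay under the filter and was not tested. The remaining tested probe set, 1455332_x_at, has a higher linear mean than 1435476_a_at (225, against 209) and did not pass at -1.20 ± 0.52 (adjusted p = 0.176 in limma). It read 581 in bone marrow replicate 3, against 104 to 150 on the other NKDxIL15tg arrays and 266 to 291 in IL15tg spleen. Probes of such related genes can cross-react, so that part of the signal of either gene may belong to the other. Fcgr1 and Fcgr4, the Fc receptors of myeloid cells, did not pass (0.15 and -0.10 in the spleen comparison, adjusted p = 0.568 and 0.886).

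Myeloid cells and B cells also carry these Fc receptors. Of 14 tested markers of granulocytes and monocytes, 6 rose and 0 fell in NKDxIL15tg against IL15tg spleen. The 6 were S100a8, S100a9, Camp, Ltf, Ngp and Lcn2. Csf1r and Ccr2 did not pass (-0.16 and 0.37, adjusted p = 0.893 and 0.0580 in limma). Camp, Ltf and Lcn2 passed the filter only through the NKDxIL15tg groups, with IL15tg spleen means of 39.6, 43.7 and 15.8, so the size of their rise is uncertain. Over all tested probe sets 6.75% rose and 7.04% fell in this comparison. Of 10 tested markers of macrophages and dendritic cells 0 rose and 4 fell there. The 4 were genes of MHC class II presentation: H2-Aa, H2-Ab1, H2-Eb1 and Cd74. H2-Aa changed by -1.28 ± 0.25 and Cd74 by -0.96 ± 0.22 (adjusted p = 0.0104 and 0.0227 in limma). The other 6 did not pass, with Adgre1 at 0.03, C1qa at 0.11 and Flt3 at -0.02 (adjusted p = 0.942, 0.809 and 0.993). Of 7 tested markers of B cells 0 rose and 3 fell there. In bone marrow against IL15tg spleen 4 fell, where 11.5% of all tested probe sets fell. In the spleen Cd79b changed by -2.07, Ms4a1 by -1.61 and Cd79a by -1.57 (adjusted p = 0.00162, 0.00292 and 0.00272 in limma). Cd79a passed the filter only through IL15tg spleen, with means of 40.6 in NKDxIL15tg bone marrow and 44.0 in NKDxIL15tg spleen, so the size of its change is uncertain. Of the 14 granulocyte and monocyte markers, 13 rose and 0 fell in bone marrow against IL15tg spleen, where 9.79% of all tested probe sets rose. Several of these also passed the filter only through the NKDxIL15tg groups. Between the organs 3 of the 14 rose and 0 fell, where 0.0111% of all rose. The part of myeloid cells and B cells in the levels of Fcgr3 and Fcgr2b was not tested.

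**Figure D4:**
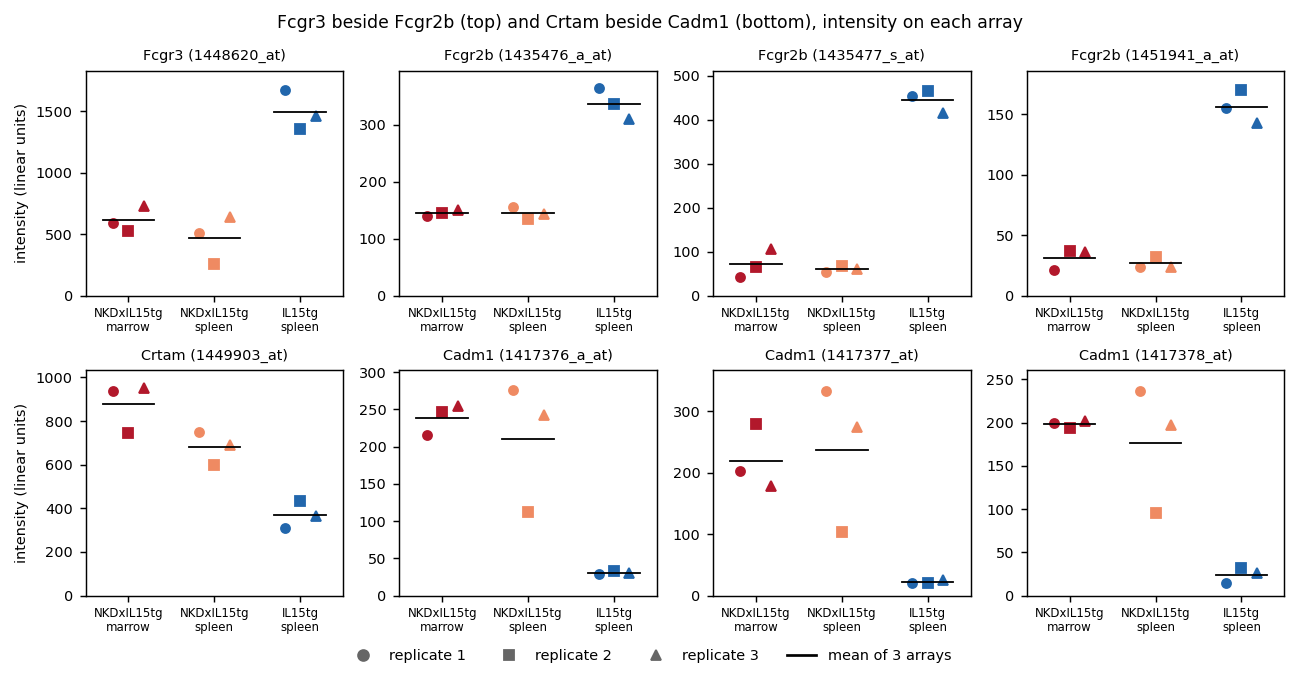
Linear intensity (vertical axes, each from 0) on each array of Fcgr3 beside 3 probe sets of Fcgr2b in the top row, and of Crtam beside 3 probe sets of its ligand gene Cadm1 in the bottom row; symbols mark replicates and lines the mean of 3 arrays. The Fc receptor probe sets shown are lower and those of Crtam and Cadm1 higher on all NKDxIL15tg arrays. NKDxIL15tg spleen replicate 2 was lowest in its group for Fcgr3 (260) and for Cadm1 (112 in 1417376_a_at). The tested Fcgr2b probe set 1455332_x_at is not shown and read 581 in bone marrow replicate 3, against 266 to 291 in IL15tg spleen.

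The 3 checkpoint receptors were dim. No difference between groups passed for Lag3 or Pdcd1, and Havcr2 was not tested. Lag3 (1449911_at) read 59.4, 54.4 and 57.6 in NKDxIL15tg bone marrow, 59.9, 55.1 and 51.1 in NKDxIL15tg spleen, and 57.8, 56.2 and 48.8 in IL15tg spleen. Its log2 changes were 0.03 ± 0.11 for NKDxIL15tg against IL15tg spleen and 0.08 ± 0.11 for bone marrow against IL15tg spleen (adjusted p = 0.927 and 0.631 in limma). Pdcd1 (1449835_at) read 67.4, 60.3 and 65.3 in NKDxIL15tg bone marrow, 59.3, 53.1 and 58.1 in NKDxIL15tg spleen, and 54.5, 46.5 and 57.0 in IL15tg spleen. The bone marrow arrays lay above all 6 spleen arrays, but the change against IL15tg spleen was small at 0.29 ± 0.11 (adjusted p = 0.0990), and that of NKDxIL15tg against IL15tg spleen was 0.11 ± 0.11 (adjusted p = 0.598). Havcr2 (1451584_at) lay near the floor, at 16.1, 21.6 and 21.9 in NKDxIL15tg bone marrow, 13.0, 19.4 and 16.5 in NKDxIL15tg spleen, and 19.5, 17.7 and 18.8 in IL15tg spleen, and its groups overlapped. No detection calls were used here, so at such intensities a low level and background cannot be told apart.

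Of the 11 genes listed as checkpoint ligands and related checkpoints, 9 were tested, and 2 fell and 0 rose in NKDxIL15tg against IL15tg spleen, where 7.04% of all probe sets fell and 6.75% rose. The median was -0.31, against -0.0029 over all probe sets. Besides Btla this was Cd274, which encodes PD-L1, the ligand of PD-1. It read 63.8, 53.5 and 56.1 in NKDxIL15tg bone marrow, 55.3, 65.6 and 70.5 in NKDxIL15tg spleen, and 133, 129 and 119 in IL15tg spleen, with no overlap between NKDxIL15tg and IL15tg arrays. Cd274 fell by 1.00 ± 0.13 in the spleen (adjusted p = 0.00131 in limma) and by 1.14 ± 0.13 (adjusted p = 0.000481) in bone marrow against IL15tg spleen, and it passed in all alternative settings of both. Its NKDxIL15tg levels were not shown to be above background, so the size of the fall is uncertain. Without bone marrow replicate 3 the spleen count was 3 lower and 1 higher: Vsir (VISTA), a checkpoint of the same family, passed there at -0.59 (adjusted p = 0.00392, but 0.0641 with all arrays). In bone marrow against IL15tg spleen 2 fell and 1 rose, the last being Cd200r1, an inhibitory receptor of leukocytes, at 0.82 ± 0.17 (adjusted p = 0.0110), and its dimmer probe set gave 0.02 (adjusted p = 0.961). The median there was -0.22, against 0.08 over all probe sets, of which 11.5% fell and 9.79% rose, and without bone marrow replicate 3 the counts were 3 lower and 1 higher. The galectin gene Lgals9, a ligand of TIM-3, gave 0.03 ± 0.38 in the spleen comparison (adjusted p = 0.979), and Lgals3, a ligand of LAG-3, spread from 205 to 2047 within NKDxIL15tg spleen (adjusted p = 0.851).

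Of 12 genes of Fc receptors and receptor signalling, 1 rose and 2 fell in each comparison against IL15tg spleen, where 13.8% of all probe sets passed in the spleen and 21.3% in bone marrow. The medians were -0.04 in the spleen and 0.07 in bone marrow (-0.0029 and 0.08 over all probe sets). Among probe sets that are not their gene's brightest, 1422701_at of the kinase gene Zap70 (0.91, adjusted p = 0.0354) and 1457239_at of the kinase gene Syk (-0.76, adjusted p = 0.0358) passed in bone marrow, while the brightest of Zap70 and Syk did not (0.32 and -0.34, adjusted p = 0.150 and 0.382). Without bone marrow replicate 3 the bone marrow count was 0 higher and 2 lower. The 2 that fell were Fcgr2b and Hcst (DAP10), the adaptor of the receptor NKG2D, which read 155, 177 and 213 in NKDxIL15tg bone marrow, 152, 178 and 148 in NKDxIL15tg spleen and 238, 239 and 270 in IL15tg spleen. Hcst changed by -0.65 ± 0.14 in the spleen (adjusted p = 0.0176 in limma) and -0.46 ± 0.14 in bone marrow against IL15tg spleen (adjusted p = 0.0461). The gene that rose was Ptpn11, which encodes SHP-2, a phosphatase that PD-1 recruits. Ptpn11 changed by 0.79 ± 0.17 (adjusted p = 0.0156) and 0.56 ± 0.17 (adjusted p = 0.0405), with -0.01 and 0.16 (adjusted p = 0.979 and 0.423) in 2 dimmer probe sets in the spleen. Neither call was firm. In the fits that leave out an array the spleen calls of Hcst and Ptpn11 passed in 4 and 6 of 9, with adjusted p up to 0.0705 and 0.0682, and those of bone marrow in 2 and 3 of 9, up to 0.138 and 0.135.

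**Figure D5:**
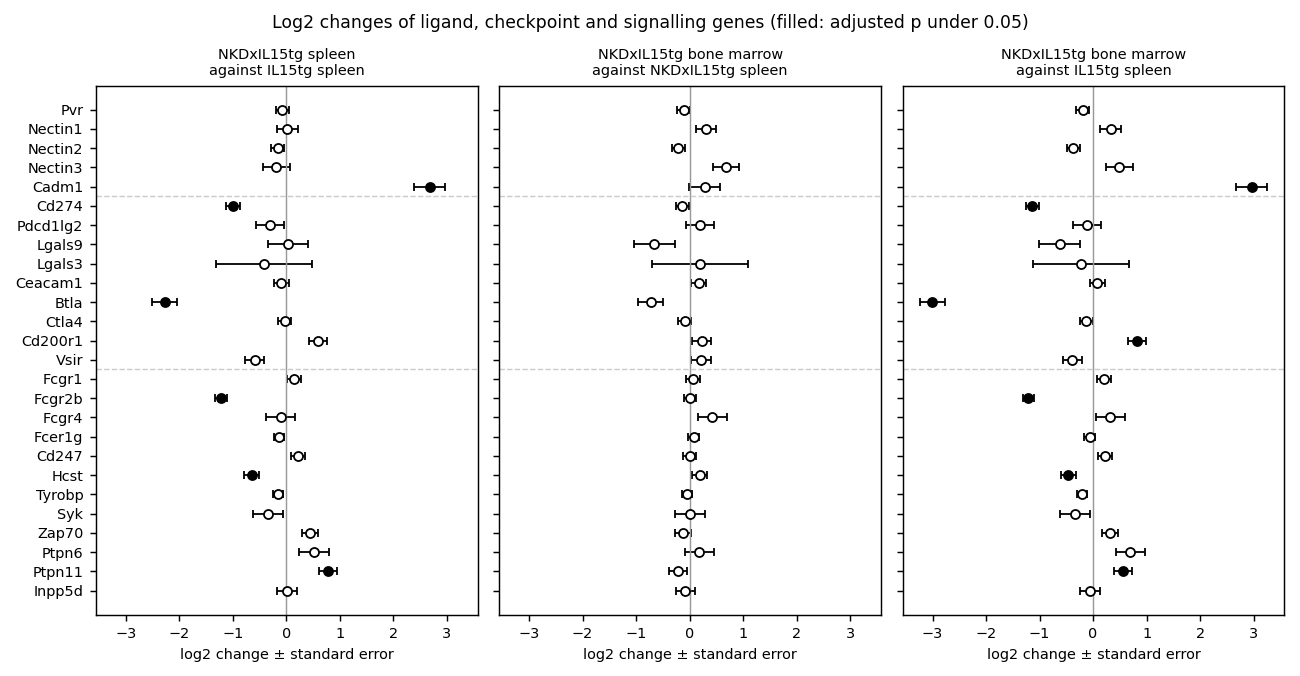
Log2 change (horizontal axes, points with standard errors, n = 3 arrays a group) of the tested ligand, checkpoint and signalling genes, in 3 groups parted by dashed lines; filled points passed at an adjusted p under 0.05. Cadm1 stands highest and Btla lowest in both comparisons against IL15tg spleen, and 0 genes passed between NKDxIL15tg bone marrow and spleen.

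The genes whose log2 intensity ran most like each member over the 9 arrays were sought among 12924 others, each by its brightest probe set. Pearson's r over arrays that share groups, amplification and depth is a description. For Fcgr3 they were Msrb2 (r = 0.990), 6330407A03Rik (0.987) and Esr1 (0.986), and Msrb2 and Esr1 stayed among the closest 3 over the 8 arrays without bone marrow replicate 3. Msrb2 averaged 62.0 in NKDxIL15tg bone marrow, 51.5 in NKDxIL15tg spleen and 109 in IL15tg spleen. For Crtam they were Akr7a5 (0.979), Mrpl44 (0.976) and Lyrm4 (0.973), and for Cd160 Mettl15 (0.979), Rpl22 (0.972) and Arfgef3 (0.969). Mettl15 alone of these was among the closest 3 again over 8 arrays. For Ncr1 they were Banp (0.947), Brms1 (0.945) and Irf2 (0.934) over 9 arrays, and Zfp658, Ier2 and Gpr183 (0.986, 0.966 and 0.957) over 8, so its nearest genes turned on 1 array. The closest to Cd96 was Lgi4 (0.957), to Pdcd1 Jak2 (0.975) and to Lag3 Krtap1-5 (0.937), with Jak2 and Krtap1-5 again among the closest 3 over 8 arrays.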

How the data were processed

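RNA of 9 sorted NK cell samples was measured on Affymetrix arrays, 3 samples in each of 3 groups. Per the labels' protocols, total RNA was extracted with Trizol and 150 ng went through a 3' amplification kit with 2 cycles and biotin labelling, which can lower the signal of probe sets far from the 3' end. The deposited values are linear intensities, 1 for each probe set on each array. Summarisation and scaling are not given in the sources used here. Array medians differed by at most 0.20 on the log2 scale, below the limit of 0.3 for rescaling, so values were used as deposited. Intensities under 16 (4.35% of values) were set to 16 before log2. After removal of 64 control probe sets, the 40th percentile filter left 27022 others.

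A model of 3 group means over all 9 arrays was fitted by lmFit and eBayes of limma 3.58.1 (R 4.3.3). The same fit was also run on simulated data, with a result that is not given here. Deviations of arrays with the same replicate number correlated at 0.123 to 0.163 in the spleen comparison, 0.228 to 0.379 between organs and -0.024 to 0.242 in bone marrow against IL15tg spleen. In the first 2, all 3 pairs were over a limit of 0.1. Arrays with different numbers correlated at -0.349 to -0.007 between organs, below every pair with the same number. They reached 0.155 in the spleen comparison and 0.267 in bone marrow against IL15tg spleen, so pairing was not shown in these. Blocked values are given in the first 2 where a call changed. The 18 alternatives were scaling, normalization, floor, filter, array weights, the block, 2 groups only, and each array left out. Precision is set by having 3 arrays a group, and standard errors of log2 changes had a median of 0.15. With 3 arrays a group the smallest p of an exact permutation test is 0.1, so none was used.

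Every probe set of the 9 members is named. Of 3 lists of partner genes and 6 of cell type markers, each gene was read by its probe set of highest mean log2 intensity, and the 3 genes most like each member were named by Pearson's r. Members, lists and motifs were chosen with earlier results of these data known. Gene names are those of the platform annotation (34945 probe sets with 1 symbol, 932 with several, 9160 with none) and symbols follow RefSeq on GRCm38.p6.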

Additional observations from a re-analysis of the deposited data

How the results depend on the processing

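The member count in NKDxIL15tg against IL15tg spleen was 3, and 5 with array weights, with only the 2 groups compared and without bone marrow replicate 3. It ranged from 2 to 5 over the 9 fits that leave out 1 array. In bone marrow against IL15tg spleen it was 5, and 2 with a floor of 64, with a range of 2 to 5 over those 9 fits. Between organs it was 0 in every setting. Over all probe sets the 3 counts (3725, 14 and 5764 for spleen, between organs and bone marrow against IL15tg spleen) ranged from 1777 to 5685, 1 to 23 and 3046 to 8046. The replicate block moved the spleen member count to 4 and the bone marrow count against IL15tg spleen to 6. It did so by adding Cd160 1456847_at (adjusted p = 0.0309 in limma for bone marrow), and it ended the Hcst call in bone marrow (0.0510). The replicate numbers were not shown to pair the arrays in either of these comparisons. Of 546 member values under alternatives, 492 kept direction and side of the threshold, 24 lost the call, 16 gained it and 14 turned sign, none of the last past the threshold. The 14 were between organs Ncr1 (-0.0279 scaled to the 75th percentile, -0.036 with array weights, -0.14 to 0.31 with 1 array left out), Cd160 1420066_s_at (0.0362 with array weights, -0.12 to 0.12), Cd160 1456847_at (-0.30 to 0.008) and Lag3 (-0.0357 scaled, -0.03 with quantile normalization, -0.0086 to 0.11), and Lag3 in the spleen comparison (-0.0457 to 0.086). Their cause was not tested. Settings for the partner genes were chosen after seeing the data. Intensities near the floor limit what Cd226, Havcr2, Lag3 and Pdcd1 can show.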
